A study of Mus musculus with 2 samples.

Results

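The genes described here are the detoxifying enzymes of the mouse lung other than cytochrome P450. They were taken by name: all protein-coding genes of GENCODE release M21 whose symbol begins with Aldh, Adh, Fmo, Ces, Sult, Ugt, Ephx or Cbr followed by a digit, and Por. This gave 104 genes in 8 enzyme families plus Por, of which 103 were matched by Ensembl identifier to the 37315 identifiers of the count tables. Ugt2a1 was not analysed here. The names were fixed without use of the measured values, but with earlier results of these libraries known.

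RNA sequencing set lung of C57BL/6 mice (an inbred strain) exposed to PM2.5 against lung of unexposed ones, PM2.5 being the fine fraction of airborne particulate matter. The control group was 1 lung library of unexposed C57BL/6 mice, and the exposed group was 1 lung library of C57BL/6 mice given PM2.5. Each title holds 12W, whose meaning is not stated, and the labels give no sex, age, dose, route of exposure or number of animals behind a library. With 1 library in each group no difference has a replicate check, and every comparison below describes these 2 libraries only.

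Foreign and endogenous compounds are cleared from tissue in steps. Oxidising enzymes, such as the flavin monooxygenases (Fmo), the alcohol dehydrogenases (Adh) and the aldehyde dehydrogenases (Aldh), and the carbonyl reductases (Cbr) introduce or convert a reactive group, while carboxylesterases (Ces) and epoxide hydrolases (Ephx) split esters and epoxides with water. Sulfotransferases (Sult) and UDP-glucuronosyltransferases (Ugt) then attach sulfate or glucuronic acid, which makes the product soluble and ready for export. Por encodes NADPH-cytochrome P450 reductase, the electron donor of the microsomal P450 enzymes. In lung, much of this capacity is known from club cells of the airway and from type 2 cells of the alveoli.

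The control library held 62788045 counts and the PM2.5 library 57435027. Levels are given as CPM, counts scaled to a common library size corrected by the trimmed mean of M values (TMM), and ratios as PM2.5 over control with an exact 95% Clopper-Pearson interval that covers counting error only. A gene was measured here if its mean over the 2 libraries was at least 1 CPM, and it was called higher or lower if it differed by at least 1.5-fold with an interval excluding 1. Surfactant and other type 2 cell markers were abundant in both libraries, with summed levels of 25306 and 27119 CPM over 8 genes, a sum led by Sftpc (14437 and 18643 CPM). Of these 8 genes 3 were lower (Abca3, Slc34a2 and Etv5, at ratios of 0.516, 0.596 and 0.638) and none higher. Other marker lists also differed between the libraries. Of 8 club cell markers 4 were higher and none lower (summed level 22688 and 34768 CPM), and of 10 markers of fat tissue 9 were higher and 1 lower (173 and 800 CPM, none at 0). Of 9 capillary endothelial markers 6 were lower (7107 and 3377 CPM), as were 6 of 9 fibroblast markers (6414 and 4354 CPM), with 1 of the 9, Inmt, higher. Of 8 adventitial fibroblast markers 3 were higher and none lower (1140 and 1452 CPM), and of 6 smooth muscle markers 3 were higher and none lower (714 and 943 CPM). All of 6 neutrophil markers were higher (484 and 1599 CPM). All of 6 red blood cell markers were lower (5705 and 2356 CPM). Of 8 type 1 cell markers 3 were lower (6561 and 4682 CPM), and of 8 ciliated cell markers 2 were higher (429 and 581 CPM). The part of these differences in the results on the enzyme genes was not tested. Fewer cells of a type and less RNA per cell cannot be told apart in tissue RNA.

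Of the 103 enzyme genes, 50 were measured. In the PM2.5 library 12 of them were higher and 7 lower, and 31 met neither size. Among all 14518 measured genes 14.9% were higher and 19.1% lower, against 24.0% and 14.0% of the enzyme genes. Among the 13792 protein-coding ones the shares were 13.3% and 19.6%. At a size of 2-fold, 7 enzyme genes were higher and none lower, where all measured genes had 7.25% and 6.04%. The higher genes were Fmo6, Fmo4, Sult5a1, Sult1d1, Ces1f, Ephx2, Adh7, Aldh1a3, Cbr2, Cbr3, Aldh1l2 and Ephx4. The lower ones were Aldh9a1, Fmo2, Aldh2, Ces2e, Ces2b, Fmo1 and Sult1a1. The median log2 ratio of the measured enzyme genes was 0.15, and that of all measured genes -0.09. Library totals in place of TMM shift all log2 ratios by 0.23 and the upper quartile by 0.14, so that small ratios carry no firm direction. Aldh1l2, Fmo6 and Ugt1a6b were under 1 CPM in the control library and entered through the PM2.5 library, which makes the higher call of the first 2 partly a matter of the filter.

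The direction of a difference went with the level of the gene. Of 16 enzyme genes with a mean of 1 to 10 CPM, 7 were higher and 2 lower (43.8% and 12.5%), where all genes of that level had 31.7% and 14.2%. Of 34 enzyme genes at 10 CPM or more, 5 were higher and 5 lower (14.7% each), where all genes of that level had 8.31% and 21.1%. Genes are no independent replicates. Across the measured enzyme genes the log2 ratio had a Spearman's rho of -0.38 with the mean CPM and of -0.33 with the exonic length. Over all measured genes the same values were -0.35 and -0.31, the latter over 14387 genes with a known length. The plot of log2 ratio against level shows the enzyme genes within the cloud of all genes.

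**Figure D1:**
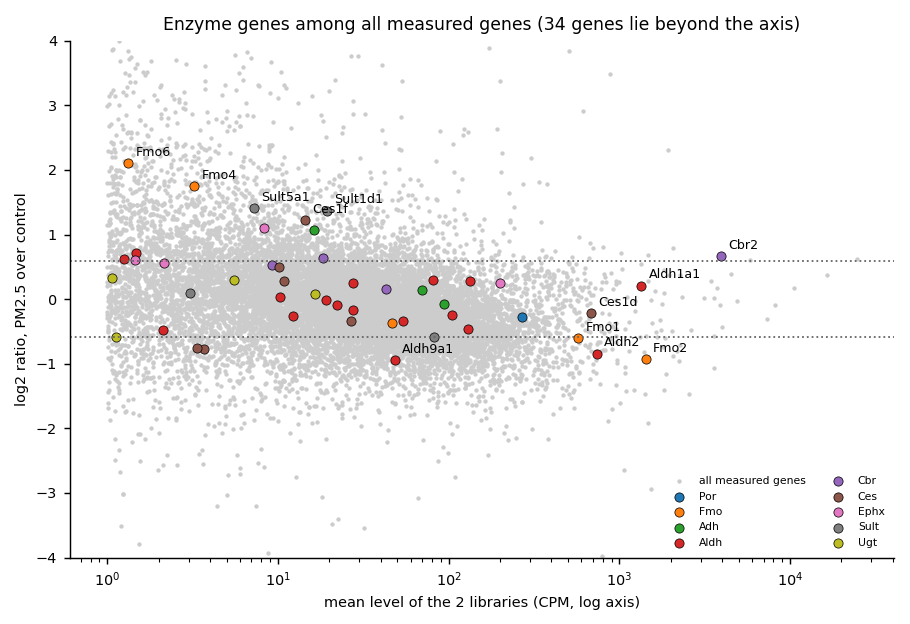
Log2 ratio of PM2.5 over control (vertical axis) against the mean level of both libraries in CPM (horizontal log axis) for 14518 measured genes in grey and 49 enzyme genes coloured by family, with dotted lines at 1.5-fold. The most abundant enzyme genes lie on both sides of 0, Cbr2 above at 0.67 and Fmo2 below at -0.93, and 34 grey genes lie beyond the axis.

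The summed level of the measured enzyme genes was 10265 CPM in the control and 10585 CPM with PM2.5 (ratio 1.03), while its make-up differed. The near-equal sum depends on TMM: of the unscaled library totals, the 103 matched enzyme genes held 0.948% in the control and 1.15% in the PM2.5 library. The trend of ratio on length was not removed from the sums and shares given here. In the control, Cbr2 alone took 29.4% of all counts on these genes, and with PM2.5 it took 45.5%. Without Cbr2 the sum was 7242 CPM in the control and 5769 CPM in the PM2.5 library. The flavin monooxygenases took 26.1% of the summed level in the control and 14.9% in the PM2.5 library, and the aldehyde dehydrogenases 28.3% and 24.7%. Per kb of exon, the highest levels in the control library were those of Cbr2, Fmo2, Ces1d, Aldh1a1 and Aldh2, in this order. In the PM2.5 library the order was Cbr2, Aldh1a1, Ces1d, Fmo2 and Ephx1. Ranks by level per kb were otherwise close, with a Spearman's rho of 0.97 between the libraries over the 50 genes.

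**Figure D2:**
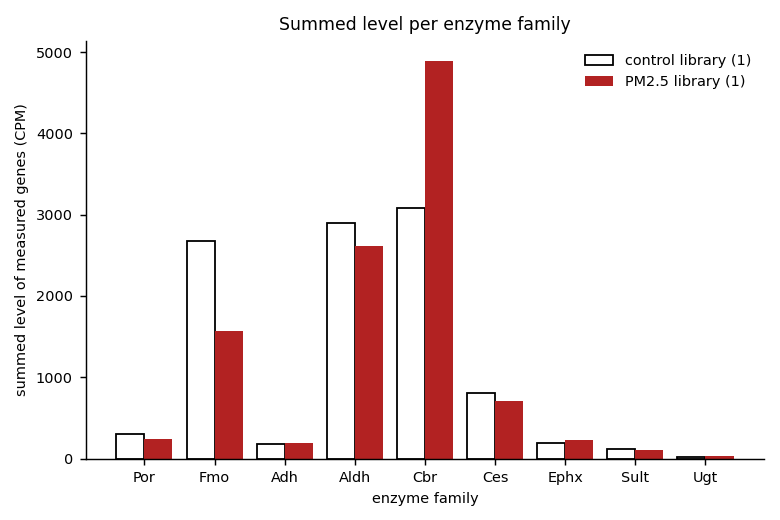
Summed level of the measured genes of each family and of Por in CPM (vertical axis), with white bars for the control library and red bars for the PM2.5 library, 1 library each and no error. The Cbr bar stands at 3085 CPM in the control and 4895 CPM in the PM2.5 library, and the Fmo bar at 2679 and 1573 CPM.

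Promoter sequences are shown for 4 genes: Cbr2 and Fmo2, the most abundant by count in the control library, and Sult1d1 and Aldh9a1, which differed most in either direction among the called genes whose window holds a searched motif. Each run is the 250 bases before a RefSeq start on GRCm38.p6, read 5′ to 3′ on the strand of the gene, and capitals mark the motifs GCGTG and TGACNNNGC on either strand. GCGTG is the core of the site that the dioxin (aryl hydrocarbon) receptor binds, and TGACNNNGC the core of the antioxidant response element. No overlap between the motifs occurs in the runs shown. The Cbr2 window is chr11:120732022-120732271, minus strand, and the Fmo2 window chr1:162898759-162899008, minus strand, that of the 2 listed starts which lies nearer to the annotated 5′ end of the gene. The Sult1d1 window is chr5:87569007-87569256, minus strand, and the Aldh9a1 window chr1:167349741-167349990, plus strand.
Cbr2: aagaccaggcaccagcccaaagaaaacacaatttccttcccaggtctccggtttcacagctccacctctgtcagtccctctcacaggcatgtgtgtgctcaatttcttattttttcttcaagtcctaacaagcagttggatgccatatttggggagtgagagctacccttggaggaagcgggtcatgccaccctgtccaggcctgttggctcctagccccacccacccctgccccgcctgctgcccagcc
Fmo2: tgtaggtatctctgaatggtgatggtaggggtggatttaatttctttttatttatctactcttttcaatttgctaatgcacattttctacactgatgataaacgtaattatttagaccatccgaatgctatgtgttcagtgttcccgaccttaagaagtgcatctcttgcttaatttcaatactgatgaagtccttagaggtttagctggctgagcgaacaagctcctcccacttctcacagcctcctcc
Sult1d1: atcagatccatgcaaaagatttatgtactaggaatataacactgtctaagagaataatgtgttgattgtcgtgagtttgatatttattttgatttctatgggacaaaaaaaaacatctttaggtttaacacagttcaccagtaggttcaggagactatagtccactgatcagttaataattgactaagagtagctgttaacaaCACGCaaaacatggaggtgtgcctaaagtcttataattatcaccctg
Aldh9a1: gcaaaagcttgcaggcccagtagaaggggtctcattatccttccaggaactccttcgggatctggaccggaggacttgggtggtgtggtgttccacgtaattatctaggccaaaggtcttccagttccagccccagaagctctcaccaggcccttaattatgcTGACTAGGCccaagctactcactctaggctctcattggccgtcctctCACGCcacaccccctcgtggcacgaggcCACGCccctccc
The Cbr2 and Fmo2 windows hold neither motif. The Sult1d1 window holds GCGTG once, beginning 47 bases before the start, and the Aldh9a1 window holds it at 40 and 12 bases and TGACNNNGC at 87 bases before the start. Over the 45 promoters of 39 measured enzyme genes that the RefSeq table matched, 11 (24.4%) hold GCGTG and 2 (4.44%) hold TGACNNNGC. Over all 32851 promoters of the table the shares were 28.2% and 10.2%. A match is a description of letters, not of binding.

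Among the flavin monooxygenases, which add oxygen to nitrogen and sulfur atoms of drugs and amines, 2 abundant members were lower and 2 rare ones higher. This is no trait of the family, since the log2 ratio also fell with the mean CPM over all measured genes (Spearman's rho of -0.35). Fmo2, the main lung form (ENSMUSG00000040170, GRCm38 chromosome 1, 162874317 to 162898726, minus strand), had 108825 counts or 1877 CPM in the control library. With PM2.5 it had 61324 counts or 986 CPM, 1.90-fold lower (interval 1.89 to 1.92). Fmo1, with 40124 counts or 692 CPM against 28413 counts or 457 CPM, was lower by 1.52-fold (1.49 to 1.54). That call was lost with library totals, the upper quartile or the length trend removed (ratios of 0.774, 0.726 and 0.718), while the call of Fmo2 held under every scaling.

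Fmo4 was 3.37-fold higher (2.65 to 4.33) on 86 and 311 counts (1.48 and 5.0 CPM). Fmo6, measured only through the PM2.5 library, was 4.31-fold higher (2.87 to 6.68) on 29 and 134 counts (0.50 and 2.15 CPM). Both were rare: per kb of exon Fmo4 had 0.40 CPM in the control and 1.35 CPM in the PM2.5 library, where Fmo2 had 335 and 176 CPM. Fmo5 met neither size at 0.774, with 52.8 and 40.9 CPM. The gene Fmo9 had no count in either library. The ratio of 2 genes within a library does not depend on the scaling: the level of Fmo2 per kb was 3.05 times that of Fmo1 in the control and 2.43 times in the PM2.5 library, a change of 1.26-fold (1.23 to 1.28, log-normal counting interval). Por met neither size, at a ratio of 0.822 (0.804 to 0.840) with 296 CPM in the control and 244 CPM in the PM2.5 library.

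The flavin monooxygenase genes Fmo4, Fmo1, Fmo2 and Fmo6 lie in this order in a cluster on chromosome 1. Their log2 ratios along this order were 1.75, -0.60, -0.93 and 2.11. The 2 lower genes were the 2 most abundant of these 4, and they lie between higher ones. In the plot of ratios along gene clusters, the Adh cluster of 238 kb on chromosome 3 likewise holds a higher gene, Adh7, beside Adh1, which met neither size.

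**Figure D3:**
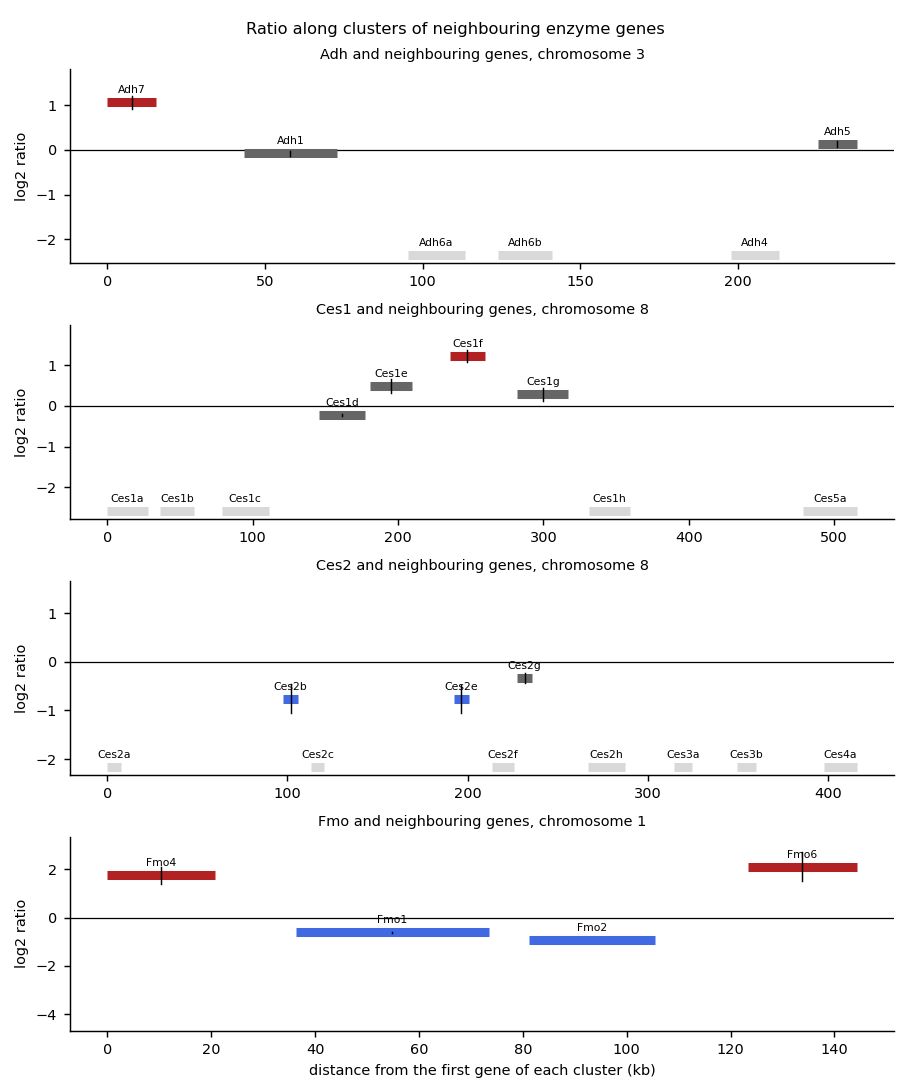
Log2 ratio of PM2.5 over control (vertical axis) against distance in kb from the first gene of each of 4 clusters (horizontal axis), with each bar spanning a gene and each black line its 95% counting interval. Red bars were called higher, blue bars lower and dark grey bars neither, and light grey bars at the bottom are genes under a mean of 1 CPM, drawn with no ratio. Fmo1 and Fmo2 lie below 0 between Fmo4 and Fmo6 above it.

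Of the alcohol dehydrogenases, 3 of 6 were measured and 1 was higher. Adh7, an epithelial enzyme that oxidises retinol and ethanol (ENSMUSG00000055301, chromosome 3, 138217760 to 138233382, plus strand), had 614 counts or 10.6 CPM in the control library. The PM2.5 library gave 1379 counts or 22.2 CPM, 2.09-fold higher (1.90 to 2.31). Adh1, the classical ethanol dehydrogenase, and Adh5, which clears formaldehyde bound to glutathione, met neither size. Adh1 had 5603 and 5690 counts, 96.6 and 91.5 CPM, and a ratio of 0.947 (0.912 to 0.982). Adh5 had 3884 and 4575 counts, 67.0 and 73.6 CPM, and a ratio of 1.10 (1.05 to 1.15). The level of Adh1 per kb was 15.5 times that of Adh7 in the control and 7.0 times in the PM2.5 library, a change of 2.21-fold (2.0 to 2.45). Adh4 and Adh6a had 1 count in each library, and Adh6b had 2 and 12 counts.

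Of 20 aldehyde dehydrogenase genes 17 were measured, 2 of them higher and 2 lower, and the family median log2 ratio was -0.08, which turns positive with library totals and the upper quartile. The 2 most abundant members differed from each other. Aldh1a1, the cytosolic enzyme that makes retinoic acid from retinaldehyde, met neither size, with 72314 and 89799 counts, 1247 and 1444 CPM and a ratio of 1.16 (1.15 to 1.17). Aldh2, the mitochondrial enzyme of acetaldehyde oxidation (ENSMUSG00000029455, chromosome 5, 121566027 to 121593824, minus strand), had 54748 counts or 944 CPM in the control and 32763 counts or 527 CPM in the PM2.5 library. It was 1.79-fold lower (1.77 to 1.82) and the call held under every scaling. Within a library the level of Aldh1a1 per kb was 1.37 times that of Aldh2 in the control and 2.85 times in the PM2.5 library, a change of 2.08-fold (2.04 to 2.11).

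Aldh9a1, which acts in carnitine synthesis, was the lowest by ratio of all measured enzyme genes. It had 3695 counts or 63.7 CPM in the control and 2064 counts or 33.2 CPM in the PM2.5 library, 1.92-fold lower (1.82 to 2.03). The higher members were rare. Aldh1a3, another retinaldehyde dehydrogenase, had 65 and 115 counts (1.12 and 1.85 CPM), a ratio of 1.65 (1.21 to 2.27). Aldh1l2, the mitochondrial formyltetrahydrofolate dehydrogenase, had 57 and 94 counts (0.983 and 1.51 CPM), a ratio of 1.54 (1.09 to 2.18), and shares 12% of its read-length windows with D10Wsu102e.

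The 4 Aldh1a genes had log2 ratios of 0.21 to 0.72 and a summed ratio of 1.16, with 1 of 4 called. Aldh1a2 was at 25.2 and 29.9 CPM and Aldh1a7, a close relative of Aldh1a1 beside it on chromosome 19, at 121 and 147 CPM. The level of Aldh1a1 per kb was 4.31 times that of Aldh1a7 in the control and 4.12 times in the PM2.5 library. No window of 125 bases, the read length, is shared between the transcripts of these genes. The 8 mitochondrial members, a group chosen after their values were seen, had a summed level 1.63-fold lower, most of it Aldh2. Their median log2 ratio was -0.26, with 1 higher and 1 lower. The members of amino acid breakdown met neither size: Aldh6a1 (valine) had a ratio of 0.845, Aldh7a1 (lysine) 0.790, Aldh4a1 (proline) 0.944 and Aldh5a1 (the transmitter GABA) 1.03. The same was so for Aldh3a2, which oxidises fatty aldehydes, at 0.726, for Aldh3b1 at 1.23, for Aldh1b1 at 0.717, for Aldh18a1 of proline synthesis at 0.830, for Aldh16a1 at 0.894 and for Aldh1l1 at 0.989.

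All 4 carbonyl reductases, which reduce ketones and quinones with NADPH, were measured and 2 were higher. Cbr2, the lung carbonyl reductase (ENSMUSG00000025150, chromosome 11, 120729489 to 120732114, minus strand), was the most abundant enzyme gene of the set in both libraries. It had 175260 counts or 3023 CPM in the control and 299561 counts or 4816 CPM in the PM2.5 library, 1.59-fold higher (1.58 to 1.60). Cbr3 was 1.56-fold higher (1.43 to 1.70), with 838 and 1401 counts and 14.5 and 22.5 CPM. Both are short, and with the trend of ratio on length removed they no longer met the size (ratios of 1.25 and 1.2). Cbr1, which also reduces prostaglandins, had 2347 and 2818 counts, 40.5 and 45.3 CPM, and a ratio of 1.12 (1.06 to 1.18). Cbr4 had 7.54 and 10.9 CPM and a ratio of 1.45 (1.28 to 1.64), just under the limit, and passed it with library totals (1.70), the upper quartile (1.59) and the length trend removed (1.57). The summed club cell markers had a ratio of 1.53, a sum led by Scgb1a1 (19383 and 29906 CPM). The 8 markers ranged from a ratio of 0.930 for Cckar to 3.51 for Scgb3a1, and 4 of them met neither size. The part of the club cell markers in the difference of Cbr2 was not tested. The level of Cbr2 per kb was 6.81 times that of Fmo2 in the control and 20.6 times in the PM2.5 library, a change of 3.03-fold (3.0 to 3.07). These genes differ in exonic length (1327 and 5609 bases), and the trend of ratio on length was not removed from this change.

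**Figure D4:**
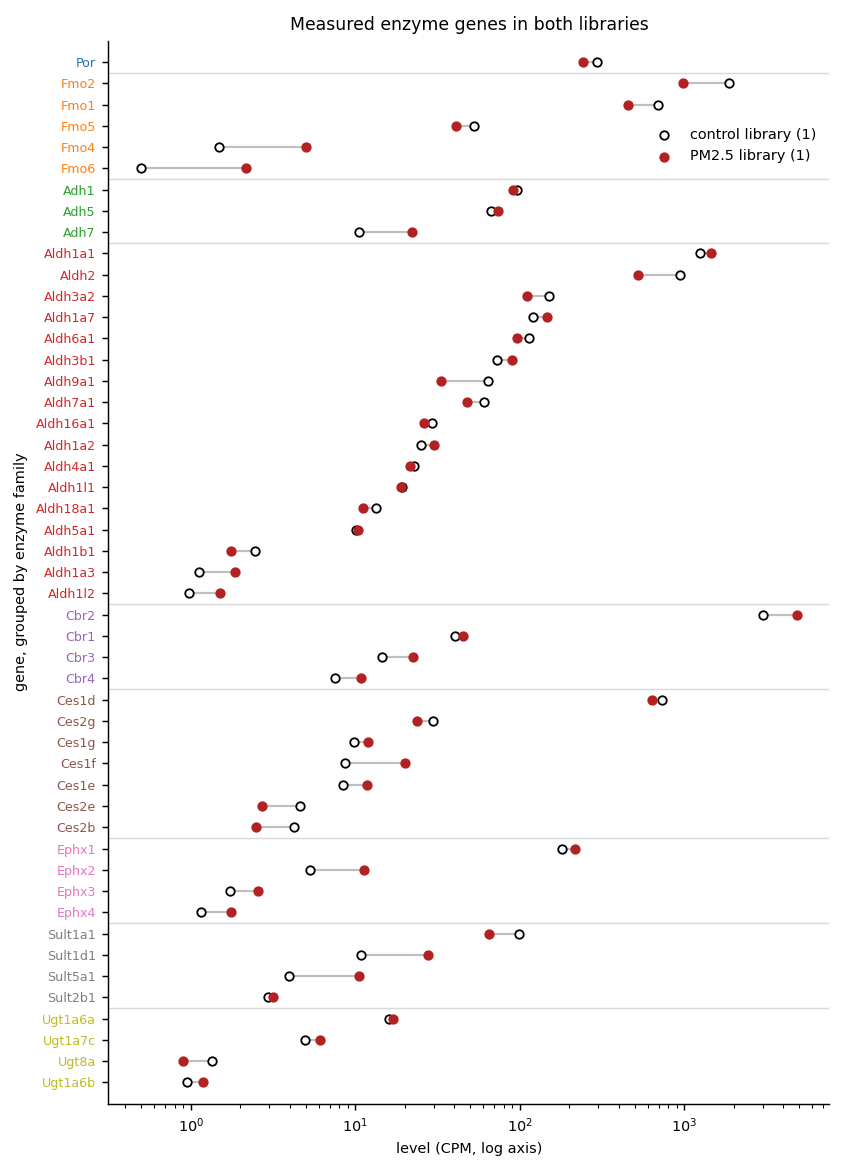
Level in CPM (horizontal log axis) of each of 49 measured enzyme genes, grouped by family (gene names in the colour of the family), with an open circle for the control library and a red circle for the PM2.5 library, 1 library each. Cbr2 moves from 3023 to 4816 CPM, Fmo2 from 1877 to 986 CPM and Aldh2 from 944 to 527 CPM.

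Of 19 carboxylesterase genes 7 were measured, 1 higher and 2 lower. Ces1d, a lung esterase that also splits stored triacylglycerol in fat and liver, was by far the most abundant. It had 42631 and 39361 counts, 735 CPM in the control and 633 CPM in the PM2.5 library, and met neither size at 0.861 (0.849 to 0.872). Ces1f, of the same cluster (ENSMUSG00000031725, chromosome 8, 93256236 to 93279747, minus strand) had 501 counts or 8.64 CPM in the control and 1255 counts or 20.2 CPM in the PM2.5 library, 2.33-fold higher (2.1 to 2.59). Ces1e and Ces1g met neither size at 1.4 and 1.22, though Ces1e passed 1.5-fold with library totals (1.65) and the upper quartile (1.55). The lower members belong to the other esterase cluster of chromosome 8, with the Ces2 genes. Ces2b had 246 and 156 counts (4.24 and 2.51 CPM), 1.69-fold lower (1.38 to 2.08), and Ces2e 268 and 169 counts (4.62 and 2.72 CPM), 1.70-fold lower (1.4 to 2.08). Both calls were lost with library totals (ratios of 0.693 and 0.689). Ces2g, the most abundant of this cluster per kb, had 1732 and 1468 counts, 29.9 and 23.6 CPM, and a ratio of 0.790 (0.736 to 0.847). Within a library the level of Ces1d per kb was 118 times that of Ces1f in the control and 43.5 times in the PM2.5 library.

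The 4 epoxide hydrolases were measured, and 2 were higher. Ephx2, the soluble epoxide hydrolase that breaks down epoxides of arachidonic acid (ENSMUSG00000022040, chromosome 14, 66084374 to 66124500, minus strand), had 307 counts or 5.30 CPM in the control and 704 counts or 11.3 CPM in the PM2.5 library. It was 2.14-fold higher (1.87 to 2.45). Ephx4 had 67 and 109 counts (1.16 and 1.75 CPM), a ratio of 1.52 (1.11 to 2.09), which fell to 1.25 with the length trend removed. Ephx1, the microsomal enzyme that hydrolyses epoxides of polycyclic hydrocarbons, was the most abundant of the family and met neither size, with 10500 and 13456 counts, 181 and 216 CPM and a ratio of 1.19 (1.16 to 1.23). Ephx3 had 101 and 159 counts, a ratio of 1.47, and passed 1.5-fold with library totals (1.72) and the upper quartile (1.61). The level of Ephx1 per kb was 43.6 times that of Ephx2 in the control and 24.3 times in the PM2.5 library.

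Of 21 sulfotransferase genes 4 were measured, 2 higher and 1 lower. Sult1a1, the main phenol sulfotransferase and the most abundant of the family, had 5699 counts or 98.3 CPM in the control against 4065 counts or 65.4 CPM, 1.5-fold lower (1.44 to 1.57). That call was lost with library totals (0.780) and the upper quartile (0.731). Sult1d1, which sulfates catecholamines (ENSMUSG00000029273, chromosome 5, 87554645 to 87569027, minus strand), had 625 counts or 10.8 CPM in the control and 1732 counts or 27.8 CPM in the PM2.5 library, 2.58-fold higher (2.36 to 2.83). Sult5a1 had 229 and 654 counts (3.95 and 10.5 CPM), 2.66-fold higher (2.29 to 3.11). The level of Sult1a1 per kb was 14.9 times that of Sult1d1 in the control and 3.83 times in the PM2.5 library, a change of 3.89-fold (3.52 to 4.29). Sult2b1, which sulfates cholesterol, had 171 and 197 counts and a ratio of 1.07. The genes on either side of Sult1d1 on chromosome 5 were under 1 CPM. Sult1e1, the oestrogen sulfotransferase, had 1 count in the control and 42 with PM2.5 (ratio 39.1, interval 6.65 to 1583). Sult1b1 had 5 and 26 counts, with an interval of 1.83 to 16.2. Of 8 Sult2a genes, 7 had no count in either library and Sult2a1 had 0 and 4 counts.

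The glucuronosyltransferases were few. Of 21 genes matched, 4 were measured and none met the size. Ugt1a6a, which conjugates phenols and is known as a target of the aryl hydrocarbon receptor, had 929 and 1053 counts, 16.0 and 16.9 CPM, and a ratio of 1.06 (0.966 to 1.16). Ugt1a7c had 287 and 378 counts, 4.95 and 6.08 CPM, and a ratio of 1.23 (1.05 to 1.44), and Ugt1a6b 55 and 74 counts with an interval of 0.873 to 1.81. Ugt8a, which makes galactosylceramide and is no detoxifying enzyme by function, had 78 and 56 counts and a ratio of 0.669 (0.466 to 0.955), just short of the limit. It passed the limit with DESeq2 size factors (0.663) and in the thinned data (0.628). The Ugt1a genes share their last exons, so that 49.8% of the read-length windows of Ugt1a6a, 68.4% of Ugt1a6b and 50.7% of Ugt1a7c occur in another gene. How reads that fit several genes were counted is not given in the sources used here, and the level of Ugt1a6a per kb is 3.72 CPM over all its exons and 7.48 CPM over exonic bases of its own in the control library. Of 11 Ugt2 and Ugt3 genes 9 had no count in either library.

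**Figure D5:**
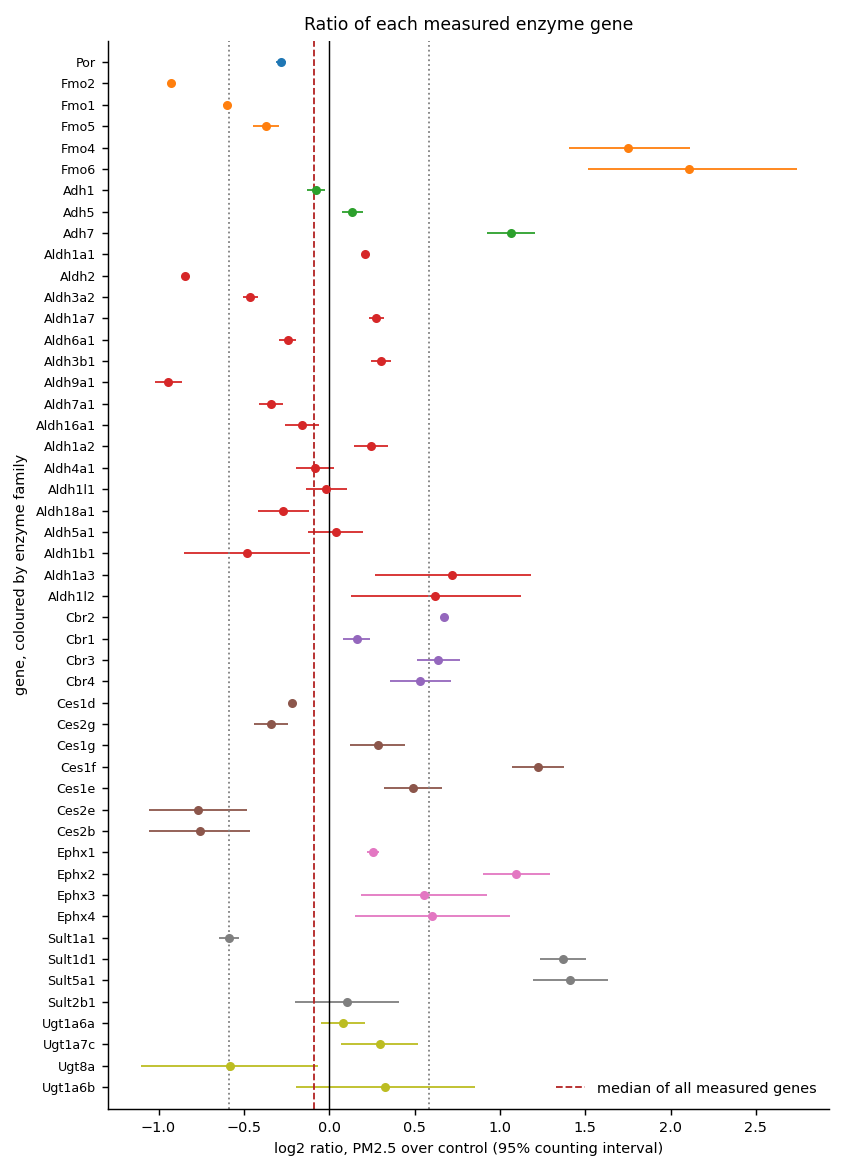
Log2 ratio of PM2.5 over control for each of 49 measured enzyme genes (points coloured by family) with its 95% counting interval (horizontal lines), dotted lines at 1.5-fold and a dashed line at the median of all measured genes, -0.09. The genes called higher lie to the right of the dotted line at 1.5-fold, up to Fmo6 at 2.11, and those called lower to the left of the other, down to Aldh9a1 at -0.94.

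Of the 53 enzyme genes under a mean of 1 CPM, 25 had no count in either library, for which 3 counts, or 0.0517 CPM in the control and 0.0482 CPM in the PM2.5 library, is the upper limit. Of the other 28, 25 had more counts in the PM2.5 library, 1 had fewer and 2 had equal counts. Rare genes as a whole leaned the same way, with 72.8% of 9797 genes under 1 CPM having more counts in the PM2.5 library. In sum these enzyme genes had 105 counts in the control and 380 in the PM2.5 library. Of 14 with at least 10 counts in a library, 5 had an interval wholly beyond 2-fold higher and none beyond 2-fold lower. Over all genes of that kind the shares were 24.8% and 1.86%. Beside Sult1e1 they were Ces1h with 1 and 20 counts (interval 2.98 to 773), Sult1c2 with 1 and 15 counts (2.15 to 589), Sult1c1 with 0 and 13 counts and Ugt1a2 with 0 and 12 counts. Against a floor of 3 counts in the control library the ratio was 4.04 for Sult1c1 and 3.73 for Ugt1a2, and their counting intervals, which have no upper end, began at 2.84 and 2.59. The gene with fewer counts in the PM2.5 library was Sult6b1, with 19 and 6.

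Companion genes of the same reactions were taken from lists of whole pathways, set up with earlier results of these libraries known. The donors of conjugation, glucuronic acid and sulfate, are made and moved by 9 listed genes, all measured, of which none was higher and 1 lower, with a median log2 ratio of -0.28. The lower gene was Papss2, which activates sulfate, at 1.52-fold (43.4 and 28.6 CPM). Ugdh, which makes the glucuronic acid donor, had a ratio of 0.903. Of 7 measured hydrolases that undo conjugation or split related esters, 1 was higher, the paraoxonase Pon1 at 1.55-fold (62.2 and 96.4 CPM), and 1 lower, the sulfatase Arsb at 1.65-fold. Of 7 measured methyl, acetyl and amino acid transferases 2 were higher and none lower. Inmt, which methylates indole amines and is also a fibroblast marker, had 1506 and 2617 CPM, 1.74-fold higher, and Nnmt, which methylates nicotinamide, had 4.95 and 11.0 CPM, 2.22-fold higher.

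Of 9 measured aldo-keto reductases 2 were higher, Akr1b10 at 1.57-fold and Akr1c13 at 1.54-fold, and none lower. Of 15 other oxidases and reductases 1 was higher and 2 lower. Aldehyde oxidase Aox1 had 25.4 CPM in the control and 61.8 CPM in the PM2.5 library, 2.44-fold higher (2.29 to 2.59), while its relative Aox3 had a ratio of 1.02. Xanthine dehydrogenase, Xdh, was 1.92-fold lower (369 and 193 CPM) and monoamine oxidase Maoa 1.61-fold lower. Of 11 measured genes of retinoid handling, 3 were higher and 1 lower, among them the receptor Rxra at 1.99-fold lower. Of 7 measured efflux transporters, Abcc5 was 1.51-fold higher and Abcb1a 2.44-fold lower. Of 9 measured regulators, Pparg was 1.65-fold higher. Nr1i2, with 46 and 124 counts, was 2.51-fold higher, but it was under 1 CPM in the control and entered through the PM2.5 library. Ahr, the aryl hydrocarbon receptor, was 2.99-fold lower (225 and 75.5 CPM). Nfe2l2, the factor of the antioxidant response, had 183 CPM in both libraries.

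Many of the enzymes are also made in liver and fat. Of 10 hepatocyte markers 9 were under 1 CPM in the mean, 4 had no count in the control library and 2 none in the PM2.5 library, and albumin, Alb, had 31 and 51 counts. The remaining marker, Cyp2e1, which lung also expresses, had 898 and 3117 counts. Among the fat markers, which stood at 9 of 10 higher, adiponectin, Adipoq, had 379 and 2582 counts. Ces1f, Ephx2 and Aldh1a1 are among the enzymes that fat also expresses, and Ces1d is another. The ratios of Ces1f and Ephx2 were 2.33 and 2.14, and those of Aldh1a1 and Ces1d, which met neither size, were 1.16 and 0.861. The summed fat markers had a ratio of 4.62, and single ones had log2 ratios from -0.68 to 9.14. The part of fat tissue in the ratios of these enzymes was not tested. The lower genes Fmo1, Fmo2 and Aldh2 stood beside lower endothelial and fibroblast markers, whose summed levels were 2.1-fold and 1.47-fold lower. Median log2 ratios of these lists were -0.84 and -1.47, and the fibroblast sum holds Inmt, which was higher (1506 and 2617 CPM). The summed levels of adventitial fibroblast and smooth muscle markers had ratios of 1.27 and 1.32. Lower markers were also present among those of type 1 cells (3 of 8, summed ratio 0.713) and of type 2 cells (3 of 8, summed ratio 1.07). All 6 red blood cell markers were lower, with a summed ratio of 0.413. The part of these markers too was not tested.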

How the data were processed

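Lung mRNA of 1 control and 1 PM2.5 library was measured. Per the labels' protocols, polyadenylated RNA was made into stranded libraries and sequenced as paired reads of 125 bases. TopHat2 2.1.1, HTSeq 0.6.0 and mm10 stand in the submitters' processing notes. The deposited values are raw counts per Ensembl gene, per the files, made by the authors without normalization. The annotation release, the strand setting and the treatment of reads that fit several genes are unknown (not given in the sources used here). No count lies outside gene rows (1 blank line in 1 file).

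Symbols, positions and exonic lengths (all annotated exons merged) came from GENCODE M21 on GRCm38, the assembly called mm10, for 35533 identifiers, and some genes are not reported here by name or in the plots of single genes, though counts and sums over the measured genes include 1 of them. TMM factors from edgeR 4.0.16 were 0.923 for the control and 1.08 for the PM2.5 library. With 1 library per group no model, p-value or standard error was computed. Where a library had 0 counts for a gene, 3 counts stood in as its floor, and no ratio is given where both libraries are at or under it. Alternatives used DESeq2 1.42.0 size factors, library totals, the upper quartile, TMM after removal of the 100 most abundant genes, various filters and sizes, thinning, and a lowess length trend (fraction 0.3). Shared windows of 125 bases were counted over all GENCODE transcripts. Protein identity, planned in the design, was not computed. The ratio step was tested on simulated data. Python 3.11.15, scipy 1.17.1, pandas 2.3.3, numpy 2.4.6, statsmodels 0.14.6, matplotlib 3.10.9 and R 4.3.3 were used.

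The enzyme genes and all lists were chosen with earlier results of these data known. Genes were named by rule: every called member with its values, the 2 most abundant members per kb of each family, other measured members by ratio, rare members with at least 10 counts in a library and an interval beyond 2-fold, and up to 3 called members of each companion list. Ugdh, Aox3, Nfe2l2 and some cell markers were named outside this rule. The pairs of genes compared within a library, the promoters printed, the mitochondrial group and other rare members were chosen after their values were seen.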

Additional observations from a re-analysis of the deposited data

How the results depend on the processing

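The count of enzyme genes called higher, 12 in the main setting, was 16 under both library totals and upper-quartile scaling, 25 without a filter, 5 at a mean of at least 10 CPM, 10 with at least 1 CPM in the control library or with the length trend removed, 7 at a size of 2-fold and 8 with the interval wholly beyond 1.5-fold. The count called lower, 7, was 3 with library totals, 5 with the upper quartile, 0 at 2-fold and 3 with the interval wholly beyond 1.5-fold. All genes moved too: their shares higher and lower were 23.8% and 9.90% under library totals, 19.5% and 13.2% under upper-quartile scaling and 18.4% and 12.8% without a filter, against 14.9% and 19.1%. At a mean of at least 10 CPM the shares were 8.31% and 21.1%, and with at least 1 CPM in the control library 12.6% and 20.0%. With the length trend removed they were 14.2% and 16.8%, at 2-fold 7.25% and 6.04%, and with the interval wholly beyond 1.5-fold 10.2% and 14.4%. The median log2 ratio, 0.15, was 0.38 with library totals, 0.29 with the upper quartile, 0.31 without a filter and 0.0103 at 10 CPM. The shift of all genes moved with it, since their median was 0.14, 0.05, 0.07 and -0.19 in these 4 settings. Over the 4 other scalings, thinning and removal of the length trend, 9 higher calls were kept (Adh7, Aldh1a3, Aldh1l2, Ces1f, Ephx2, Fmo4, Fmo6, Sult1d1 and Sult5a1) and 3 lower calls (Aldh2, Aldh9a1 and Fmo2). The filters were not among these settings, and Aldh1l2 and Fmo6 were measured only through the PM2.5 library, where they were higher. No called gene changed sign in these settings. Library totals and the upper quartile could not change one, since their shifts of 0.23 and 0.14 in log2 are smaller than the size of a call. Both shifts raise every ratio, so these scalings could remove lower calls but no higher one. The higher calls that were lost (Cbr2, Cbr3 and Ephx4) were lost only with the length trend removed. The numbers of higher and lower calls kept are therefore not comparable. An alternative chosen after seeing the data left out the 6 measured genes that share over 10% of their windows with another gene. Of the 44 that remained, 11 were higher and 7 lower. All measured genes, which were not filtered in this way, had shares of 14.9% and 19.1%. The length divisor changes levels per kb, not ratios. No paired analysis was possible because each group has 1 library. Intervals cover counting error only, and the spread between animals is unknown.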
